A study of Mus musculus with 9 samples.

Results

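The human silencing hub (HUSH) and the enzymes that act on methylated lysine 9 of histone H3 were followed through 10 mouse genes: Mphosph8, Fam208a, Pphln1, Morc2a, Atf7ip, Smarcad1, Smchd1, Kdm4a, Kdm4b and Kdm4c. They were chosen by name, and the signal of a chromatin immunoprecipitation labelled H3K9me3 was read at each of them. The deposited table held 17641 windows, nearly all 401 bp wide. Windows were assigned to 7 of the 10 genes, 1 window each. For 6 of these the listed symbol was used, and for Fam208a its current symbol, Tasor. The windows at the starts of the other 3 genes were assigned to a neighbour: that of Pphln1 to Zcrb1, that of Atf7ip to the long noncoding RNA Gm44140, and that of Kdm4c to A230083N12Rik. These 3 windows are given beside the 7, named by the gene whose start they mark.

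The libraries came from 2 mouse pancreatic endocrine cell lines. One was alphaTC1, a glucagon-producing alpha cell line, which had received either an empty vector or short hairpin RNA against Smndc1, a splicing factor gene, 5 days before. The other was betaTC3, an insulin-producing beta cell line labelled as untreated, so that it carried no vector. Each of these 3 groups had 2 immunoprecipitated libraries and 1 input. Nothing in the labels says that replicates were separate cultures, and the spread behind each p-value may thus be technical. An immunoprecipitation does not measure whether Smndc1 RNA was lowered. Whole reads in the windows ranged from 4530066 to 9924487 per library. The start windows of the alpha cell genes Gcg and Irx1 were high in the 4 alphaTC1 libraries and at 0 to 0.799 scaled reads in betaTC3. The start windows of the beta cell genes Ins1 and Pdx1 were high in betaTC3 and at 0 to 5.30 scaled reads in alphaTC1. Of the 8 windows of the 6 alpha cell markers 7 were called lower in betaTC3 against empty vector and 1, that of Ttr, higher. Over all windows 33.2% were called lower and 22.1% higher. The beta cell markers also had 8 windows, at 5 of the 6 genes, with no window at Ins2. Of these 8, 5 were called higher and 0 lower, beside the same shares of all windows. The start window of Nkx6-1 was not called (log2 change 0.10, adjusted p = 0.667, limma). It held 1068.4 and 1129.2 scaled reads in empty-vector alphaTC1 and 1222.6 and 1135.3 in betaTC3. Other marker lists differed too. Sst, an islet gene, was called higher at its start (5.72) and Sox9, an acinar and duct gene, lower (-6.74). The 2 Col1a1 windows, of the fibroblast list, went in opposite directions (-1.59 and 2.48). Signal at most alpha and beta cell marker windows was thus higher in the line of that cell type. Expression was not measured in these libraries, and what the antibody bound was not tested.

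HUSH silences retroelements and long intronless genes by spreading H3K9me3. MPHOSPH8 reads the mark through its chromodomain, TASOR (from Fam208a) is the scaffold, and PPHLN1 (periphilin) completes the core. HUSH recruits MORC2, an ATPase that compacts chromatin, and works with the methyltransferase SETDB1, which its partner ATF7IP stabilizes. SMARCAD1 is a nucleosome remodeller that helps restore H3K9 methylation after replication, SMCHD1 is a noncanonical SMC protein of the inactive X chromosome and imprinted clusters, and KDM4A, KDM4B and KDM4C remove trimethyl groups from H3K9.

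H3K9me3 is best known from silent regions and repeats, but signal was found at the starts of all 10 genes. At Atf7ip it was stronger inside the gene than at the start. Each gene had a called peak covering a start in all 6 peak lists. A looser measure asked for a peak touching any base from 250 before to 50 after a start. By it all 6 lists held a peak for 48.4% of 17492 protein-coding genes and for 0 of 944 olfactory receptor genes. Of the genes followed here it was 9 of 9, as Kdm4b had no promoter entry. In the window table, 65.9% of windows lay within 1 kb of a gene start. What the antibody bound was not tested.

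RefSeq promoters (GRCm38.p6, 250 bases before to 50 after the start) were matched for 9 of the 10 genes. Those of Fam208a and Morc2a are shown because these 2 start windows had the largest changes in betaTC3 against empty vector before chromosomes were taken into account, with every CG dinucleotide in capitals. They lie at chr14:27428584-27428883 and chr11:3649187-3649486, both on the plus strand, and hold 32 and 46 CG dinucleotides. The 2 windows that changed lie outside these bases, at chr14:27428959-27429359 and chr11:3648345-3648745.
Fam208a: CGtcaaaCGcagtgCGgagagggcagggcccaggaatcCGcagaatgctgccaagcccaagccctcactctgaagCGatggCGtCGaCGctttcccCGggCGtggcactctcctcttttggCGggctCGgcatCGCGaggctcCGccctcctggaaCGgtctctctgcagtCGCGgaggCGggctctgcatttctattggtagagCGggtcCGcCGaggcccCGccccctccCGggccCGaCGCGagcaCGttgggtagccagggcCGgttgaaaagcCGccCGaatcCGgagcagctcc
Morc2a: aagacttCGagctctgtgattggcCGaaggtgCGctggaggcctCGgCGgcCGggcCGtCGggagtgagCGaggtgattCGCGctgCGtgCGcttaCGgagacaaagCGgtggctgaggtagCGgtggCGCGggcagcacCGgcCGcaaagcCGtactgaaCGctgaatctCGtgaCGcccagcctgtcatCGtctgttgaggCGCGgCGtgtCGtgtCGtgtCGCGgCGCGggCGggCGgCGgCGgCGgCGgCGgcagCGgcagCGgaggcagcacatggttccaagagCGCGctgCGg
The Mphosph8 promoter, chr14:56667998-56668297 on the plus strand, is shown because peak calls broke inside it. Capitals mark the 45 bases, 56668133 to 56668177, that lay between 2 peaks in each of the 3 lists that held 2.
Mphosph8: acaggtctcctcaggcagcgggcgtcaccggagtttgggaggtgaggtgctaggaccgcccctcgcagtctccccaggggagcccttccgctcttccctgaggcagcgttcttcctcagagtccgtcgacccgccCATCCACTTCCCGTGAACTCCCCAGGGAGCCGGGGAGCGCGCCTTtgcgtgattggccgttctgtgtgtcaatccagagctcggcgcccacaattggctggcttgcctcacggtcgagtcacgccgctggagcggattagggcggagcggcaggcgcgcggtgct
The Pphln1 promoter, chr15:93398100-93398399 on the plus strand, is shown because it serves 2 opposed genes. Capitals mark the 17 bases from the Zcrb1 start, on the minus strand, to the Pphln1 start.
Pphln1: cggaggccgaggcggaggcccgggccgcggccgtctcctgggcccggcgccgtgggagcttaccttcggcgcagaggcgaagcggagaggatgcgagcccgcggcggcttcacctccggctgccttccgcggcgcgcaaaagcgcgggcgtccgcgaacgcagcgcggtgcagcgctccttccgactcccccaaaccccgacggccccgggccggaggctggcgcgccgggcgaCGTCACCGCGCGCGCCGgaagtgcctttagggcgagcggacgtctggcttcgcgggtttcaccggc

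These promoters were rich in CG. The 9 held 13 to 53 CG dinucleotides with a median of 29, against a median of 13 over 21263 promoters of protein-coding genes. Pphln1 had the most and Kdm4a the fewest. The CCAAT box (CCAAT, either strand) was found in 6 of the 9 and in 38.2% of all promoters. The GC box (GGGCGG, either strand) was found in 6 of 9 and in 46.2%. The ETS motif CCGGAAG was found in 1 of 9, that of Pphln1, and in 11.6% of all. The TATA motif (TATAAA) and the NRF1 motif (GCATGCGC) were found in 0 of 9, and in 12.6% and 3.52% of all promoters. A match or its lack describes these letters only.

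The levels of the 10 start windows spanned a 28.1-fold range in empty-vector alphaTC1 cells. Levels are scaled reads per 401-bp window, so genes are compared over the same length. Morc2a was the highest, at 2274.5 and 2314.4 scaled reads, and stood at the 99.3rd percentile of all windows by its mean over the 6 libraries. Smchd1 came next, at 1735.7 and 1867.8. Kdm4c at 925 and 992, Pphln1 at 912 and 892 and Smarcad1 at 819.5 and 842 followed, each separated from its neighbours in the order. Kdm4b at 781 and 748, Kdm4a at 677 and 794 and Mphosph8 at 583 and 689 overlapped each with the next. Fam208a, at 207 and 199, and Atf7ip, at 78.1 and 85.2, were the lowest, Atf7ip with only 59 to 96 whole reads in a library. The median of all windows was 318.9.

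**Figure D1:**
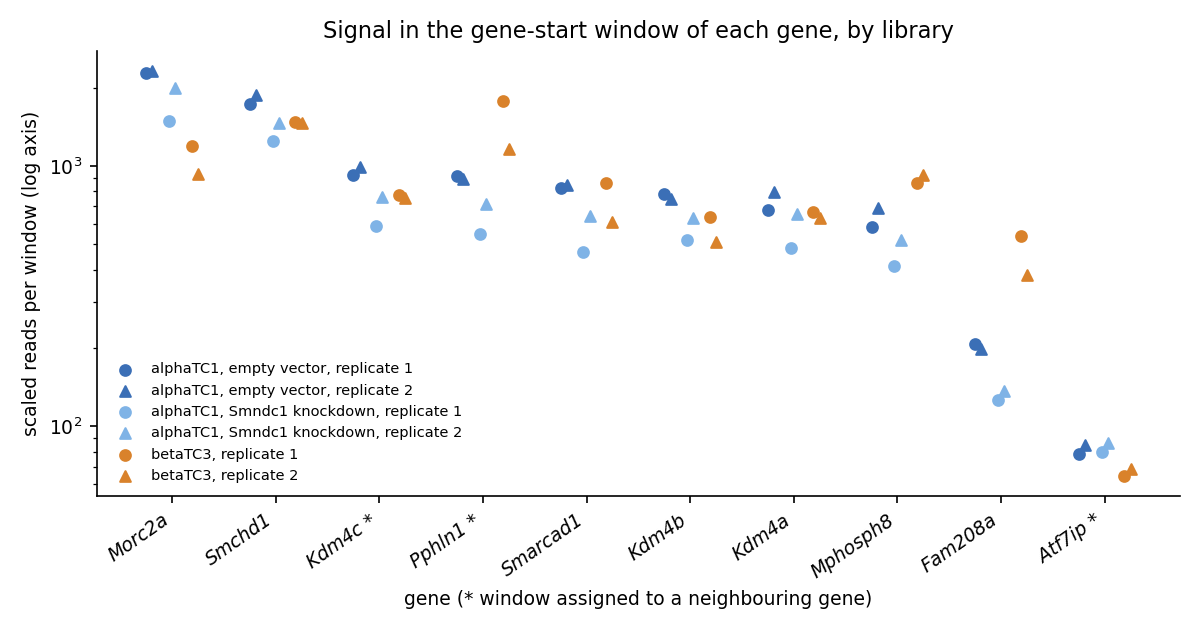
Scaled reads in the gene-start window of each of the 10 genes (log axis) in the 6 libraries, ordered by the empty-vector mean, with circles for replicate 1 and triangles for replicate 2. The betaTC3 libraries lie above both alphaTC1 groups at Fam208a, Pphln1 and Mphosph8 and below them at Morc2a and Atf7ip.

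Several of these windows belong to a pair of starts. The Morc2a window (chr11:3648345-3648745) was centred 892 bp upstream of the Morc2a start and 269 bp inside the divergent long noncoding RNA gene Tug1, whose start lies 623 bp from that of Morc2a. The Pphln1 window (chr15:93397846-93398246) was centred 288 bp inside Zcrb1, 16 bp from whose start Pphln1 begins. The Fam208a window (chr14:27428959-27429359) was centred 325 bp inside Fam208a, with the divergent noncoding Gm52095 starting 104 bp away. The Atf7ip window (chr6:136518948-136519348) was centred 297 bp inside Atf7ip and lies upstream of Gm44140, whose start is 98 bp from that of Atf7ip. Reads at such a pair cannot be assigned to one gene of the pair, and this holds most for Morc2a and Pphln1.

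The first comparison asked what the Smndc1 short hairpin RNA did to these windows in alphaTC1 cells. None of the 7 windows passed the test. All 7 had lower means with the hairpin, and so did most windows of the table. At Smarcad1 the empty-vector libraries gave 819.5 and 842 scaled reads and the knockdown libraries 468 and 640.1. At Fam208a they gave 207 and 199 against 127 and 137, and at Mphosph8 583 and 689 against 412 and 521. The 2 groups did not overlap at any of the 7 genes. Both knockdown libraries lay below both empty-vector libraries in 64.6% of all windows and in 86.0% of the 11340 windows above 100 scaled reads.

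The log2 changes of the 7 windows, on the log2(scaled reads + 1) scale used throughout, ran from -0.62 at Fam208a to -0.38 at Kdm4a. Their median was -0.42, and that of the windows above 100 scaled reads was also -0.42. With limma and Benjamini-Hochberg adjustment over all 17641 windows, 0 of the 7 were called at an adjusted p below 0.05, the values lying between 0.119 and 0.199. The background was the same, with 0% of windows called. At an unadjusted p below 0.05, 5 of the 7 and 6169 of all windows passed. Of the 7, edgeR called 0 with either scaling and DESeq2 0; over all windows they called 83 with the authors' scaling, 0 with TMM and 10 with DESeq2.

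Measured against its own chromosome, each of the 7 was close to 0. The reference was the median change of all windows on that chromosome with more than 100 scaled reads. The change minus that reference ran from -0.19 at Fam208a and Smarcad1 to 0.06 at Kdm4a, with a median of -0.02. For Smchd1 this difference was 0.00048, and for the 3 KDM4 genes it was 0.06 (Kdm4a), -0.0027 (Kdm4b) and -0.08 (Kdm4c). In the fit centred on each chromosome's median, 0 of the 7 windows and 0% of all windows were called. Atf7ip stood apart in sign. Its libraries gave 78.1 and 85.2 scaled reads after the empty vector against 80.0 and 86.6 after the hairpin, a log2 change of 0.03 (SE 0.18, adjusted p = 0.933, limma), while the chromosome 6 median was -0.41. At 59 to 96 reads that difference was not called in the centred fit either (0.49, SE 0.25, adjusted p = 0.483). Over the alternatives to the uncentred fit, the adjusted p of Atf7ip ran from 0.424 (limma, libraries centred on their medians) to 0.980 (DESeq2).

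One library decided this count. In each of the 10 start windows knockdown replicate 1 was lower than replicate 2. Summed over all windows, replicate 1 was lower too, with 5.41e+06 scaled reads against 6.71e+06. How many of all windows share that order was not counted. Without replicate 2, Mphosph8 (-0.62), Kdm4a (-0.59) and Smchd1 (-0.53) were called lower, 3 of 7, beside 35.6% of all windows. Of the other start windows, Kdm4c was then called too (-0.70).

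The second comparison was between the 2 cell lines, betaTC3 and empty-vector alphaTC1, which also differ in that only alphaTC1 was transduced. Line and vector cannot be told apart. At the HUSH core the start windows of Fam208a, Mphosph8 and Pphln1 were higher in betaTC3, and that of Morc2a was lower. The 3 KDM4 genes, Smchd1, Smarcad1 and Atf7ip did not pass the test. In all, 3 of the 7 windows were called, 2 higher and 1 lower, beside a background of 55.2% of windows called, 22.1% higher and 33.2% lower. A count of 3 in 7 is not above that background. The median change of the 7 was -0.20, and that of all windows -0.13.

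**Figure D2:**
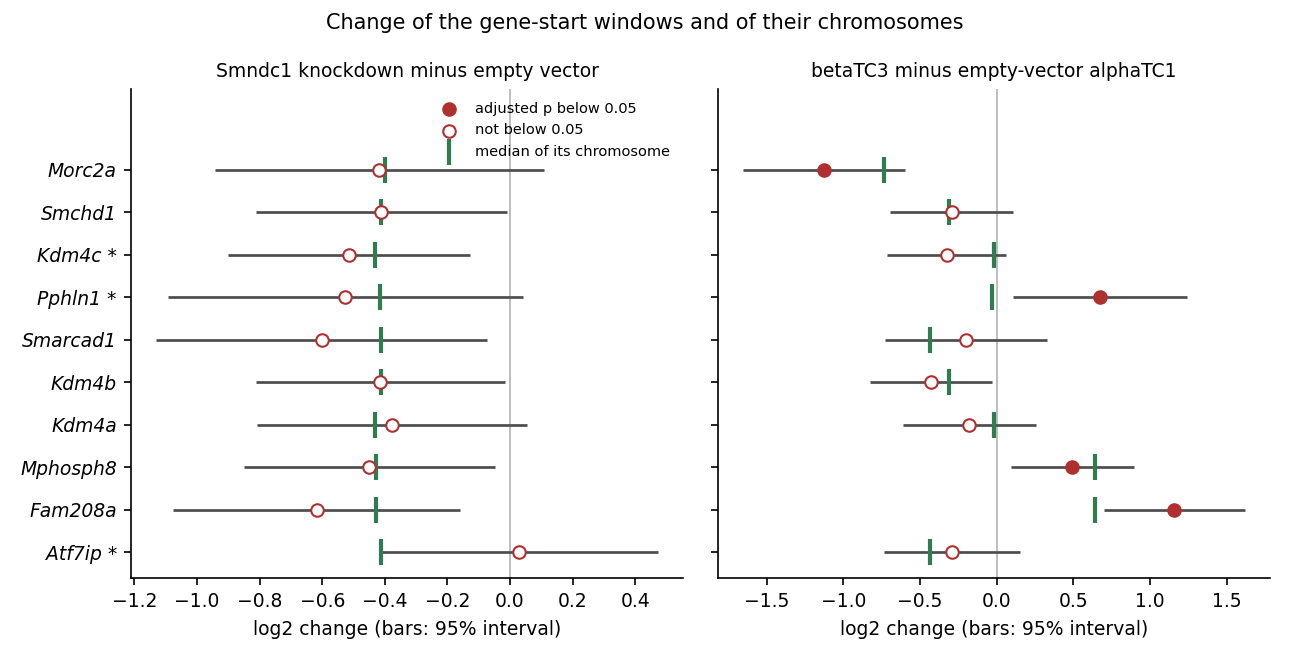
Log2 change of the 10 start windows (circles, filled where the adjusted p was below 0.05, with 95% intervals) and median change of all windows with over 100 scaled reads on that chromosome (vertical ticks), for knockdown minus empty vector (left) and betaTC3 minus empty vector (right). On the left all circles but that of Atf7ip lie within 0.20 of their tick, and on the right Fam208a and Pphln1 lie 0.52 and 0.70 above theirs, Smarcad1 and Atf7ip 0.23 and 0.14 above, Smchd1 0.01 above, and the other 5 below, Morc2a by the most (-0.39).

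Fam208a, the scaffold gene, had the smallest adjusted p among the start windows in the uncentred fit. Its window held 207 and 199 scaled reads in the empty-vector libraries and 539 and 381 in betaTC3. The log2 change was 1.16 (SE 0.19, adjusted p = 0.00224, limma), a 2.23-fold difference. Windows of chromosome 14 were higher in betaTC3 as a whole, with a median of 0.64, and Fam208a exceeded it by 0.52. In the chromosome-centred fit it was still called (0.56, SE 0.15, adjusted p = 0.0115), and over all alternatives its adjusted p ran from 6.26e-09 to 0.0261. The 8 other windows above 100 scaled reads within 1 Mb had a median of 0.71, all above 0 and 4 called. Of its nearest neighbours, Ccdc66 changed by 0.34 (adjusted p = 0.0692) and Appl1 by 0.70 (adjusted p = 0.0501). The windows most like it over the 6 libraries, among 11339 compared, were those of Cdh4, Eif4g3 and 1700037F03Rik, with a root mean square difference of 0.076 to 0.092 in centred log2 values.

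Mphosph8, the chromodomain subunit gene, lies on the same chromosome. It held 583 and 689 scaled reads in the empty-vector libraries against 857 and 926 in betaTC3. The log2 change was 0.49 (SE 0.17, adjusted p = 0.0441, limma). That is 0.15 below the chromosome 14 median, and in the chromosome-centred fit the sign turned (-0.10, SE 0.13, adjusted p = 0.501). Over the alternatives to the uncentred fit, the centred fit among them, its adjusted p ran from 1.18e-05 (DESeq2) to 0.501. The 14 neighbours within 1 Mb had a median of 0.61, and 10 were called higher, among them both nearest, Cenpj at 0.54 and Pspc1 at 0.68. The call was lost when any 1 of the 4 libraries compared was left out (0.37 to 0.61).

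Pphln1, the periphilin gene, was higher in betaTC3 on a chromosome with a median near 0. The window shared with Zcrb1 held 912 and 892 scaled reads in the empty-vector libraries and 1772.9 and 1163.9 in betaTC3. The spread between the betaTC3 libraries was the widest of the 10 windows, an SD of 29.3% of the mean. The log2 change was 0.67 (SE 0.24, adjusted p = 0.0493, limma), with a chromosome 15 median of -0.03. In the chromosome-centred fit it was 0.65 (SE 0.13, adjusted p = 0.00235). Over the alternatives to the uncentred fit with no single library left out, its adjusted p ran from 1.52e-05 (DESeq2) to 0.0834 (replicate block, limma). The uncentred call was lost with only the groups compared in the fit (adjusted p = 0.0609), and without any single library other than betaTC3 replicate 2, at 0.37 without betaTC3 replicate 1 and 0.65 to 0.69 without the others.

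Morc2a went the other way. The window inside Tug1 held 2274.5 and 2314.4 scaled reads in the empty-vector libraries and 1189.1 and 928 in betaTC3. The log2 change was -1.13 (SE 0.22, adjusted p = 0.00468, limma). The median of chromosome 11 was -0.73, and the chromosome-centred change was -0.47 (SE 0.10, adjusted p = 0.00299). Over the alternatives to the uncentred fit with no single library left out, its adjusted p ran from 1.10e-09 (DESeq2) to 0.0158 (replicate block, limma). The part of chromosome 11 around the gene was lower than the chromosome. The 68 windows above 100 scaled reads within 10 Mb had a median of -1.11, from which Morc2a differed by -0.02. Of 21 within 1 Mb, 17 were called lower and 3 higher, and the nearest on each side were at -0.92 (Smtn) and -1.24 (Slc35e4). Without empty-vector replicate 2 (-1.11) or betaTC3 replicate 2 (-0.95) the call was lost.

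**Figure D3:**
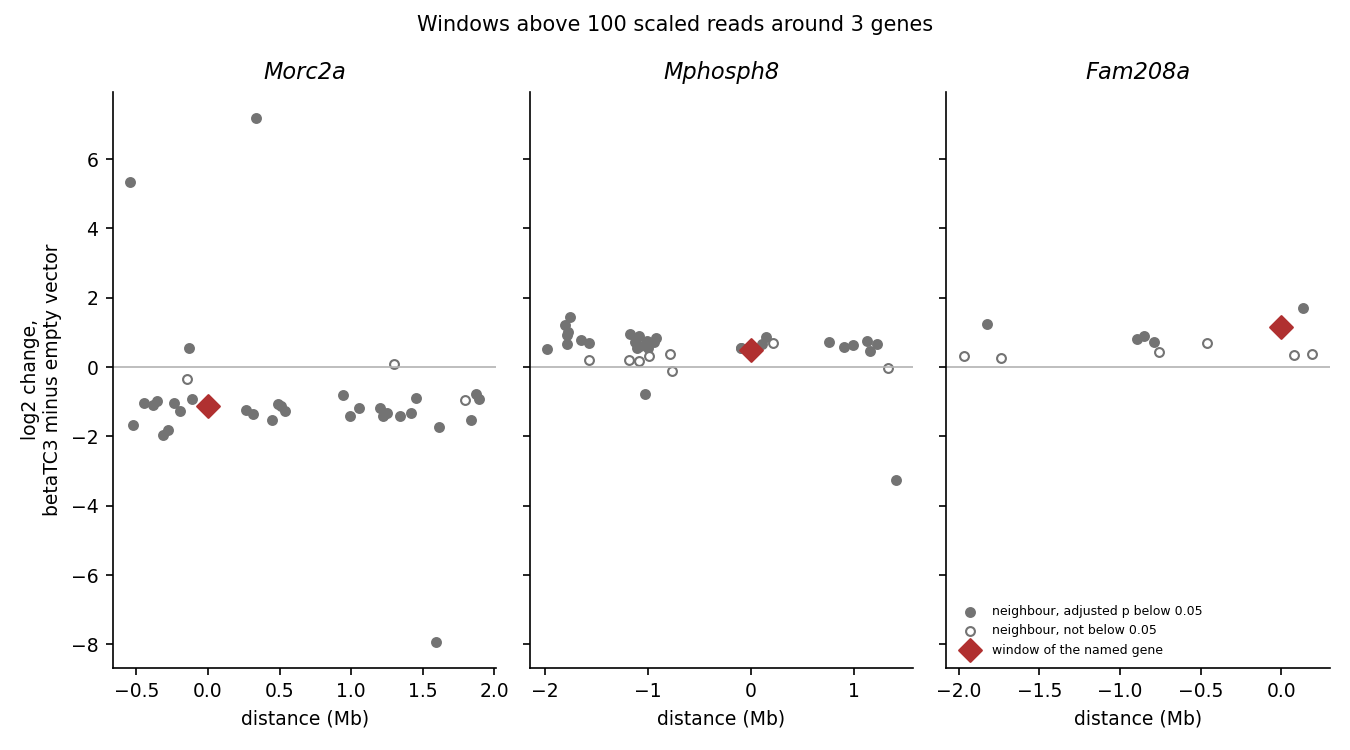
Log2 change (betaTC3 minus empty vector) of windows above 100 scaled reads within 2 Mb of Morc2a, Mphosph8 and Fam208a against their distance in Mb, filled where the adjusted p was below 0.05, with the named gene as a diamond. Most windows around Morc2a lie below 0, as it does (-1.13), most around Mphosph8 lie above 0 (its own value is 0.49), and Fam208a (1.16) lies above all but 2 of the windows drawn around it.

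None of the 3 demethylase genes passed the uncentred test. Kdm4a held 677 and 794 scaled reads in the empty-vector libraries and 666 and 629 in betaTC3, a change of -0.18 (95% interval -0.61 to 0.25, adjusted p = 0.436, limma) on a chromosome with a median of -0.02; its sign turned with DESeq2 and with libraries centred on their medians. Kdm4b held 781 and 748 against 634 and 509, a change of -0.43 (-0.83 to -0.03, adjusted p = 0.0675). It lay 0.12 below the chromosome 17 median of -0.31. Kdm4c held 925 and 992 against 775 and 755, a change of -0.32 (-0.71 to 0.06, adjusted p = 0.133). Relative to chromosome 4 Kdm4c was called lower in the chromosome-centred fit (-0.30, SE 0.10, adjusted p = 0.034). Over the alternatives to the uncentred fit with no single library left out, its adjusted p ran from 0.0252 (limma, only the groups compared) to 0.483 (DESeq2).

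Smchd1, Smarcad1 and Atf7ip did not pass the test at their starts. Smchd1 held 1735.7 and 1867.8 scaled reads against 1471 and 1464.6, a change of -0.29 (95% interval -0.70 to 0.11, adjusted p = 0.180, limma), within 0.02 of its chromosome's median. It was called (-0.29) when only the groups compared entered the fit or 1 knockdown library was left out. Smarcad1 held 819.5 and 842 against 858 and 610.0, values that overlap, and its change of -0.20 (-0.73 to 0.33, adjusted p = 0.476) turned sign with DESeq2 and with chromosome centring. Atf7ip held 78.1 and 85.2 against 64.7 and 68.5, a change of -0.29 (-0.73 to 0.15, adjusted p = 0.228) that turned sign with chromosome centring.

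Over the 7 windows the chromosome-centred fit called 1 higher (Fam208a) and 1 lower (Morc2a), beside 57.7% of all windows. Centring libraries on their medians moved the median of all windows from -0.13 to 0.05. It also moved the calls over all windows from 3893 higher and 5851 lower to 6050 and 5623, and chromosome centring moved them to 5193 and 4988. The calls at Fam208a, Mphosph8 and Morc2a kept their direction with library centring.

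Atf7ip differed inside the gene. RefSeq places the gene at chr6:136518789-136610850, and the table held 3 more windows in it, all assigned to Gm44140. The window 14368 bp from the start (chr6:136533019-136533419) held 113 and 125 scaled reads in the empty-vector libraries, 94.4 and 75.5 in the knockdown libraries, and 13.6 and 35.2 in betaTC3. The betaTC3 minus empty-vector change was -2.38 (SE 0.42, adjusted p = 0.00315, limma). It rests on only 17 and 37 whole reads in the betaTC3 libraries. The change was -1.72 without betaTC3 replicate 1 and -3.04 without replicate 2. The window 32533 bp from the start (chr6:136551184-136551584) held 289.9 and 299 in the empty-vector libraries, 233 and 298 in the knockdown libraries and 129 and 127 in betaTC3, a change of -1.20 (SE 0.16, adjusted p = 8.96e-04). Both remained called with chromosome centring, at -1.91 and -0.73, beside a chromosome 6 median of -0.43. The 60 windows above 100 scaled reads within 10 Mb of the Atf7ip start window had a lower median, -0.73. The window 35420 bp from the start held 22.2 to 37.7 scaled reads in all 6 libraries and was not called (-0.08, adjusted p = 0.827).

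The peak lists showed the same places. The 4 alphaTC1 lists each held 4 peaks at Atf7ip, and the 2 betaTC3 lists held 2. The start peak and the peak at the window 32533 bp into the gene were in all 6 lists. The peaks at the windows 14368 and 35420 bp into the gene were in the 4 alphaTC1 lists and in neither betaTC3 list. At the window 32533 bp into the gene the authors' fold over background was 31.5 to 33.6 in alphaTC1 and 16.7 and 14.0 in betaTC3, and the peak spanned 1822 to 2191 bp against 937 and 1040 bp. The weak peaks at the window 35420 bp into the gene had folds of 2.81 to 5.74 in alphaTC1, and the reads of that window overlapped between the cell lines.

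Against the knockdown libraries, betaTC3 gave calls at the start windows of Fam208a, Mphosph8, Pphln1 and Morc2a and at 2 windows inside Atf7ip. This last comparison shares its betaTC3 libraries with the second and its knockdown libraries with the first, so the values are given side by side and not counted again as support. Fam208a was higher by 1.77 (adjusted p = 3.26e-04, limma), Mphosph8 by 0.94 (0.0033) and the Pphln1 window by 1.20 (0.00517), and Morc2a changed by -0.71 (0.0294). The Atf7ip windows 14368 and 32533 bp into the gene changed by -1.89 (0.00874) and -1.04 (0.00185). Of the 7 windows 2 were called higher and 1 lower, beside 60.6% of all windows, 36.6% higher and 24.0% lower. Relative to their chromosomes the 4 windows stood at 0.72 (Fam208a), -0.11 (Mphosph8), 0.82 (Pphln1) and -0.41 (Morc2a). In the chromosome-centred fit 62.9% of all windows were called, 5195 higher and 5894 lower, in place of 6451 and 4240. Of the 7 windows, Fam208a (0.70) and Smarcad1 (0.41, adjusted p = 0.0141) were then called higher and Morc2a (-0.48) lower, while Mphosph8 was not called and its sign turned (-0.13). Of the other start windows, Pphln1 (0.72) was called higher and Kdm4c (-0.27, adjusted p = 0.0462) lower. The Morc2a call was lost with only the groups compared in the fit (adjusted p = 0.0798; 1.17e-08 to 0.203 over its alternatives), without either empty-vector library (-0.71), without knockdown replicate 2 (-0.50) and without betaTC3 replicate 1 (-0.89) or 2 (-0.53), and that of Pphln1 without betaTC3 replicate 1 (0.89).

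Peak shape at the starts fell into 2 kinds. At Mphosph8, Kdm4a, Kdm4b, Kdm4c, Smchd1, Fam208a and Atf7ip the summit of the peak over the start lay downstream of it, by 48 to 711 bp. At Morc2a it lay upstream in all 6 lists, at -974 to -777 bp, inside Tug1, and at Smarcad1 at -196 to -64 bp. At Pphln1 it lay at -412 to -224 bp in 5 lists and 137 bp downstream in that of knockdown replicate 1. Peaks ran from 802 bp at Atf7ip to 3830 bp at Pphln1. The Pphln1 peak spanned 3026 and 3830 bp in betaTC3 and 1939 to 2063 bp in alphaTC1, while median peak widths of the lists were 1129 to 1287 bp.

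**Figure D4:**
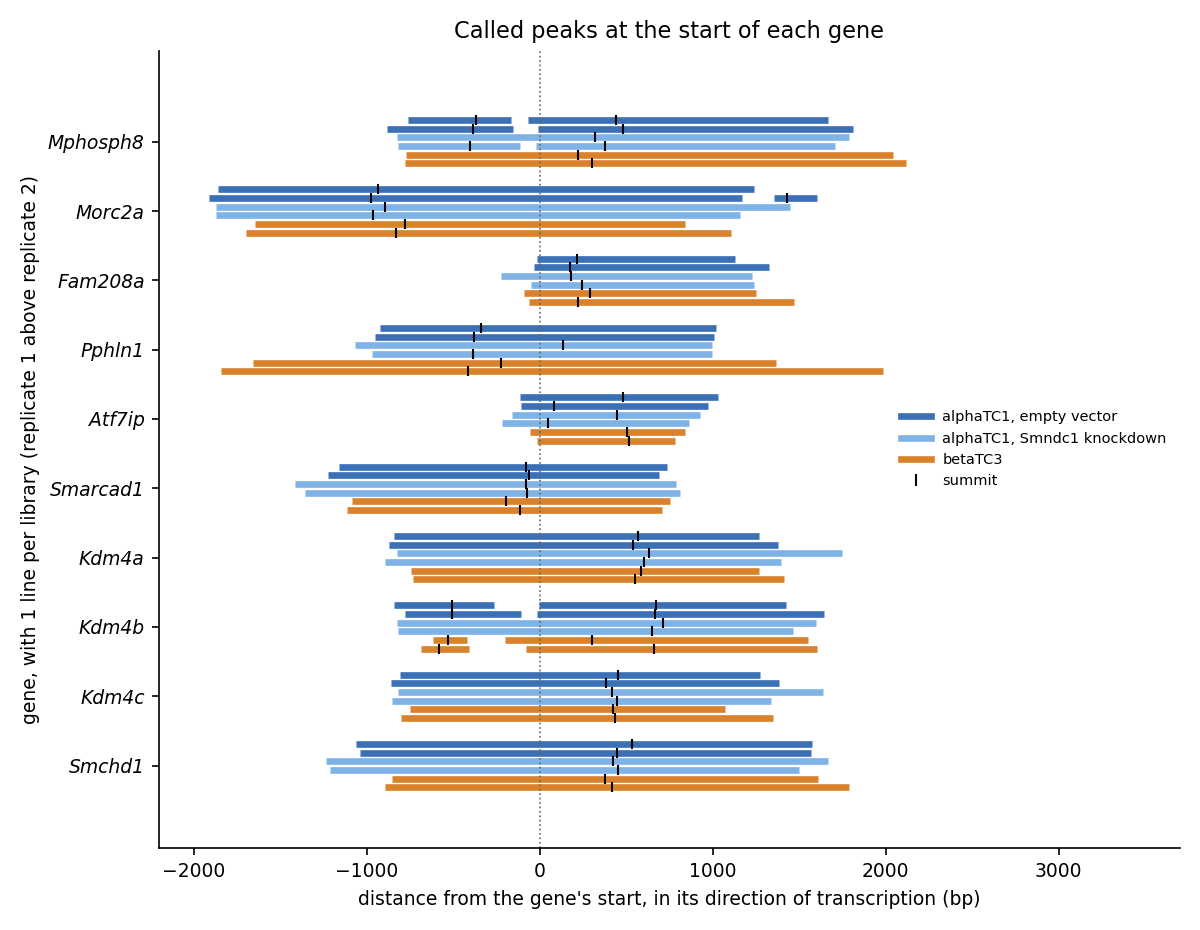
Called peaks (bars) and their summits (ticks) at the start of each of the 10 genes, by distance from the start in bp in the direction of transcription, with 1 line per library. The summit lies upstream of the start at Morc2a, and the peak is widest in betaTC3 at Pphln1 and is broken just upstream of the start in some lists at Mphosph8 and Kdm4b.

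Breaks in the peak just before the start were seen at 2 genes. At Mphosph8 both empty-vector lists and that of knockdown replicate 2 held 2 peaks, with the marked bases of the promoter between them. Knockdown replicate 1 and both betaTC3 lists held 1 peak of 2615 to 2895 bp. At Kdm4b both empty-vector and both betaTC3 lists held 2 peaks and both knockdown lists held 1, of 2424 and 2283 bp. Each list was called on its own library, so a break is 1 observation per library and was not tested.

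Kdm4a also had a peak within 2 kb of its other end. It lay about 45 kb from the Kdm4a start, was present in all 6 lists, and was nearest to the window of St3gal3, whose change in betaTC3 was 0.23 (adjusted p = 0.508, limma).

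Other genes of the pathway were read in 3 lists, with 7 windows each. Of the other HUSH, KAP1 and MORC genes, 0 were called higher and 2 lower in betaTC3 against empty vector by limma, beside 22.1% and 33.2% of all windows, with a median change of -0.03. With edgeR and TMM, and with DESeq2, 4 of the 7 were called, beside 67.8% and 61.9% of all windows. With edgeR and the authors' scaling 2 were called, beside 59.3%. Lrif1, an HP1-binding partner of SMCHD1, held 319 and 368 scaled reads near its start in the empty-vector libraries and 106 and 121 in betaTC3 (-1.59, adjusted p = 2.03e-04, limma). The Morc1 window lay 47473 bp inside the gene (-5.29, adjusted p = 8.34e-06). Trim28, the gene of KAP1, held 982 and 918 against 1009.4 and 679 (-0.20, adjusted p = 0.520). No window of the rows used here was assigned to Setdb1.

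Of the other H3K9 demethylases 1 was called higher and 1 lower, beside 55.2% of all windows called in either direction, with a median of -0.03. With edgeR and TMM, and with DESeq2, 4 were called, beside 67.8% and 61.9% of all windows. The start window of Jmjd1c, a KDM3 family gene, was at 0 reads in the 4 alphaTC1 libraries and at 344 and 105 scaled reads in betaTC3 (adjusted p = 5.24e-05, limma). Phf2 was lower (-1.14, adjusted p = 9.63e-04) at a window -7424 bp from its start, that is upstream. Of the H3K9 methyltransferase and HP1 genes 1 was called higher and 2 lower, beside the same 55.2%, with a median of -0.08. With edgeR and TMM, and with DESeq2, 5 were called, beside the same 67.8% and 61.9%. Setdb2 was higher (0.44, adjusted p = 0.0389) and Cbx1 (-0.81, adjusted p = 0.0112) and Cbx5 (-3.29, adjusted p = 0.00172, 24571 bp inside the gene) were lower. Setdb2 lies on chromosome 14 and Cbx1 on chromosome 11, whose medians were 0.64 and -0.73. In knockdown against empty vector limma called 0 windows in each of the 3 lists, as did edgeR and DESeq2, with 4, 2 and 3 windows at an unadjusted p below 0.05 and medians of -0.54, -0.48 and -0.52.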

How the data were processed

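H3K9me3 chromatin immunoprecipitation was sequenced as 50 bp single reads in 6 libraries, and 3 inputs. Bowtie2 2.4.1, Picard 2.19.2, MACS2 2.2.7.1 and the build mm10 are named in the submitters' processing notes. The authors deposited a signal table of scaled reads: in each library 100% of values were whole multiples of 1 step (tolerance 0.001), so the values were whole reads times 1 factor. How that factor was set and whether input was subtracted are not given in the sources used here. Each library has 1 peak list, in which the authors give a fold over background (ratio), a summit offset and a −log10 q-value. RefSeq gene positions (GRCm38.p6) were used.

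All windows were tested with limma 3.58.1 (R 4.3.3) with an intensity trend on log2(scaled reads + 1), a mean per group over the 6 libraries, and Benjamini-Hochberg adjustment over 17641 windows; "called" means an adjusted p below 0.05. Windows above 100 scaled reads (mean of 6) gave the chromosome medians. Peaks within 2 kb of a gene were counted. Alternatives were other pseudocounts, filters, centrings, fits, left-out libraries, and edgeR 4.0.16 and DESeq2 1.42.0 on the recovered whole reads. The fit was tested on simulated data. Intervals cover the spread between libraries.

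Members and lists were chosen with earlier results of these data known. Named are all 10 genes, list genes called in betaTC3 against empty vector, Setdb1 and Trim28, nearest neighbours of called members, and the 3 windows most like the member with the smallest adjusted p. The labels do not say whether equal replicate numbers pair the libraries, and the main fit used no pairing. Correlations of same-numbered deviations were -0.06 (empty vector with knockdown), 0.25 (empty vector with betaTC3) and -0.27 (knockdown with betaTC3). With 2 libraries a group, these values cannot show whether libraries shared a batch.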

Additional observations from a re-analysis of the deposited data

How the results depend on the processing

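The counts of 7 windows called kept within 1.5 times their main value under every alternative other than a left-out library. The main counts were 0 for knockdown against empty vector, 3 for betaTC3 against empty vector and 3 for betaTC3 against knockdown. Leaving out 1 library left 1 library in its group. Each of the 3 counts changed in at least some of these fits, and so did the share of all windows called. With the 3 start windows of other genes added, the counts were 0, 4 and 4 of 10, beside 0%, 55.2% and 60.6% of all windows. The replicate block, on all 6 libraries, gave 0, 3 and 2 calls and 0, 9152 and 9891 over all windows. A crossed block, chosen after seeing the data, was fitted only to the betaTC3 and knockdown libraries. It gave 4 calls and 11853 over all windows, where the same libraries without a block gave 2 and 8754. With the replicate block, and with only the groups compared, the Pphln1 change of 0.67 against empty vector and the Morc2a change against knockdown of -0.71 were not called. In betaTC3 against empty vector, Mphosph8 (0.49) and Pphln1 (0.67) were not called with a pseudocount of 0.1 or without the trend. Over all windows, knockdown against empty vector had 335 calls with a pseudocount of 0.1, 163 without the trend, 31 with only the groups compared, 83 with edgeR and the authors' scaling, 10 with DESeq2 and 6281 without knockdown replicate 2, against 0 in the main fit. Signs turned with chromosome centring at Mphosph8 (0.030), Morc2a (0.018), Kdm4a (0.11), Kdm4b (0.017) and Smchd1 (0.020) for knockdown, at Mphosph8 (-0.10), Smarcad1 (0.27) and Atf7ip (0.18) for betaTC3 against empty vector, and at Mphosph8 (-0.13) against knockdown. With DESeq2 Smarcad1 (0.045) and Kdm4a (0.045) turned, and with library centring Kdm4a (0.0027). Left-out libraries gave -0.033 to 0.091 for Atf7ip with the knockdown and -0.45 to 0.046 for Smarcad1 in betaTC3. The cause was not tested. Of 10 genes, 8 had a start peak in all lists among the stronger peaks of each. The 59 to 96 reads at Atf7ip limit that window.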
